A study of Triticum aestivum with 24 samples.

Results

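Wheat plants (Triticum aestivum cv Chinese Spring) that had been held at 37 °C for 5 days from the boot stage were compared with plants kept in control conditions, 1 day after the heat had ended (1 day after treatment, 1 DAT). The members were chosen by the labels alone: 4 heat libraries and 4 control libraries of 1 DAT, that is 8 of the 24 small RNA libraries of the series, with all 202 annotated miRNA tags of 37 families in each. A tag is 1 exact sequence, so that isomiRs, which are length or register variants from the same hairpin, were counted apart. Control plants had 16 h of light at 18 °C and 8 h of dark at 16 °C, and the heated plants had gone back to these conditions for the day before sampling. Each library was made from a pool of leaf RNA of 18 plants, the plants of both groups came from seeds of 1 selfed plant, and the same plants had been sampled at 0 DAT and were sampled again at 4 DAT. The groups thus speak for a single genotype, and pooling evens out differences between plants.

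The heat libraries of 1 DAT held 127692 to 157709 reads on the 202 tags (median 135614), and the control libraries held 72458 to 225459 (median 119884). Reads were found for 200 to 201 tags in heat libraries and for 197 to 200 in control libraries. Values are given as reads per 1000000 reads (RPM) of the library total after TMM scaling, and at this depth a single read was worth 4.45 to 9.78 RPM. Over 122 tags the lowest correlation between any pair of the 8 libraries was 0.82, between control replicate 3, the shallowest library, and control replicate 4.

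Plant miRNAs are cut from a hairpin by Dicer-like enzymes, mostly at 21 nucleotides (nt), and an Argonaute protein then uses them to find mRNAs by base pairing. Both arms of the hairpin (5p and 3p) can leave a stable RNA. Several conserved families aim at transcription factors: miR156 at SPL, miR159 at MYB, miR166 at class III HD-ZIP, miR169 at NF-YA, miR171 at GRAS and miR319 at TCP proteins. Others tie to nutrients: miR399 acts in phosphate homeostasis through PHO2, miR395 in sulfate assimilation, and miR398 and the monocot family miR528 act on mRNAs of copper proteins. The miR11xx families of wheat come in many copies, and some are known to arise from miniature inverted-repeat transposons, whose 2 arms are nearly complementary.

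The sequences below are a selection. They leave out some tags that differed and include some that did not pass the test. They are written 5′ to 3′ as DNA, with the seed (bases 2 to 8) in capitals. The 5 tags of miR528 come from a single hairpin of 119 bases, and they show which of its products rose.
miR528-1.1-5p: gCAGCAGCggtggaaggggc
miR528-1.2-5p: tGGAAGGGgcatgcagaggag
miR528-1.5-5p: gGAAGGGGcatgcagaggagc
miR528-1.3-3p: cCTGTGCCtgcctcttccatt
miR528-1.4-3p: tGCCTGCCtcttccattcctg
On that hairpin miR528-1.1-5p covers bases 11 to 30, miR528-1.2-5p 21 to 41, miR528-1.5-5p 22 to 42, miR528-1.3-3p 83 to 103 and miR528-1.4-3p 87 to 107. The single-base shift between miR528-1.2-5p and miR528-1.5-5p gives them different seeds.

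The tags of the other families below either rose or fell, or are shorter, longer or shifted forms of such a tag that did not pass the test themselves.
miR399-18-3p: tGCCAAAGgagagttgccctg
miR166-4.1-3p: tTCGGACCaggcttcattccc
miR166-12.1-3p: tTTCGGACcaggcttcattcc
miR166-12.2-3p: tTCGGACCaggcttcattc
miR166-8.1-3p: tCGGACCAggcttcaatccct
miR166-7.1-3p: tCGGACCAggcttcaatcc
miR166-5.1-3p: tCGGACCAggcttcaatc
miR9662-1.2-3p: tGAACATCccagagccaccgg
miR9662-1.6-3p: tGAACATCccagagccacc
miR171-7-3p: tGAGCCGAaccaatatcactc
miR9772-5-5p: cGTTGAGAtgagattacccca
miR166-12.2-3p is the first 19 bases of miR166-4.1-3p, and the tags miR166-5.1-3p (18 nt) and miR166-7.1-3p (19 nt) are the first bases of miR166-8.1-3p. A read that stops early can therefore not be assigned to 1 parent hairpin.

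For the miR11xx families the tags overlap each other in the same way.
miR1137-264-3p: aGTCATCTattttgaaacgga
miR1137-229-3p: gtcatctattttgaaacggaa
miR1137-121-5p: tCCGTTCCaaaatagatgact
miR1137-385-5p: tCCGTTCCaaaatagatgac
miR1135-1673-5p: tccgttcggaattacttgtctcgg
miR1135-757-5p: ccgttcggaattacttgtctcgga
miR1135-1403-5p: ttcggaattacttgtctcggaaat
miR1122-943-3p: aTTACTTGtcttggatttgtc
miR1122-1462-3p: tatctagacaaatccaagacaagt
miR1136-1111-3p: cCGAGACAagtaattccgaacgaa
miR1136-1752-3p: cCGAGACAagtaattccgaac
miR1121-18-3p: agtgatctaaacgctctta
Tags with no capitals are among 35 tags that the deposited table lists as the reverse complement of the sequence annotated by the study. For 34 of these a hairpin was listed, and it held the annotated letters for all 34 and the deposited letters for 0. They are printed in the hairpin's orientation, the strand that was sequenced is not settled, and no seed is marked. The tags miR1135-1673-5p, miR1135-757-5p and miR1135-1403-5p are windows on 1 sequence, with 20 to 23 bases shared between any 2 of them. In the hairpin's orientation, miR1137-229-3p starts 1 base after miR1137-264-3p and shares 20 bases with it. In the deposited orientation these 20 bases are complementary to those of miR1137-264-3p. Such overlapping tags cannot be taken as independent of each other.

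At 1 DAT, 13 tags were higher in heat plants and 10 were lower, at an adjusted p below 0.05 (edgeR quasi-likelihood test, Benjamini-Hochberg over 202 tags). These 23 tags were 11.4% of all tags, with 6.44% called higher and 4.95% called lower. They came from 14 families. Among the higher tags were miR399-18-3p, 2 of the 5 tags of miR528, and short forms of miR166 and miR9662. Among the lower tags were 4 of miR1135, miR171-7-3p and another short form of miR166. Over all 202 tags the median log2 fold change (heat over control) was -0.12, with 84 positive values.

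The counts rested on few libraries. Without control replicate 2, 1 tag was higher (miR1121-18-3p) and 0 were lower, and without control replicate 3 there were 5 (miR1121-18-3p, miR1122-943-3p, miR1137-264-3p, miR528-1.3-3p and miR528-1.5-5p) and 1 (miR166-7.1-3p). Without control replicate 3, the other called tags had edgeR adjusted p values of 0.0552 (miR1133-72-3p) to 0.294 (miR171-7-3p). Without heat replicate 1 there were 7 and 6, without heat replicate 3 11 and 2, and without heat replicate 4 8 and 4. Only miR1121-18-3p was called in all 8 fits that left out 1 library of 1 DAT, and miR166-7.1-3p and miR1137-264-3p were called in 7. The calls of miR528-1.3-3p, miR9662-1.6-3p, miR1137-229-3p, miR1135-272-5p, miR1121-33-5p and miR171-7-3p held in 2 of these fits. The fit estimated the spread from all 24 libraries. With the 8 libraries of 1 DAT alone, 1 tag was higher and 0 were lower. With library totals in place of TMM factors, 5 tags were higher and 0 were lower, and with DESeq2 size factors or with TMM computed outside miR166 13 were higher and 6 were lower. The direction of the 23 tags was the same in all 412 alternative values of these tags. These values are refits of the libraries from which the tags were picked, so a kept direction is no separate support.

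In 14 of the 202 tags (6.93%) all 4 heat libraries lay above all 4 control libraries, and in 5 (2.48%) all lay below. Of the called tags, 7 of the 13 higher and 3 of the 10 lower had groups that did not overlap.

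**Figure D1:**
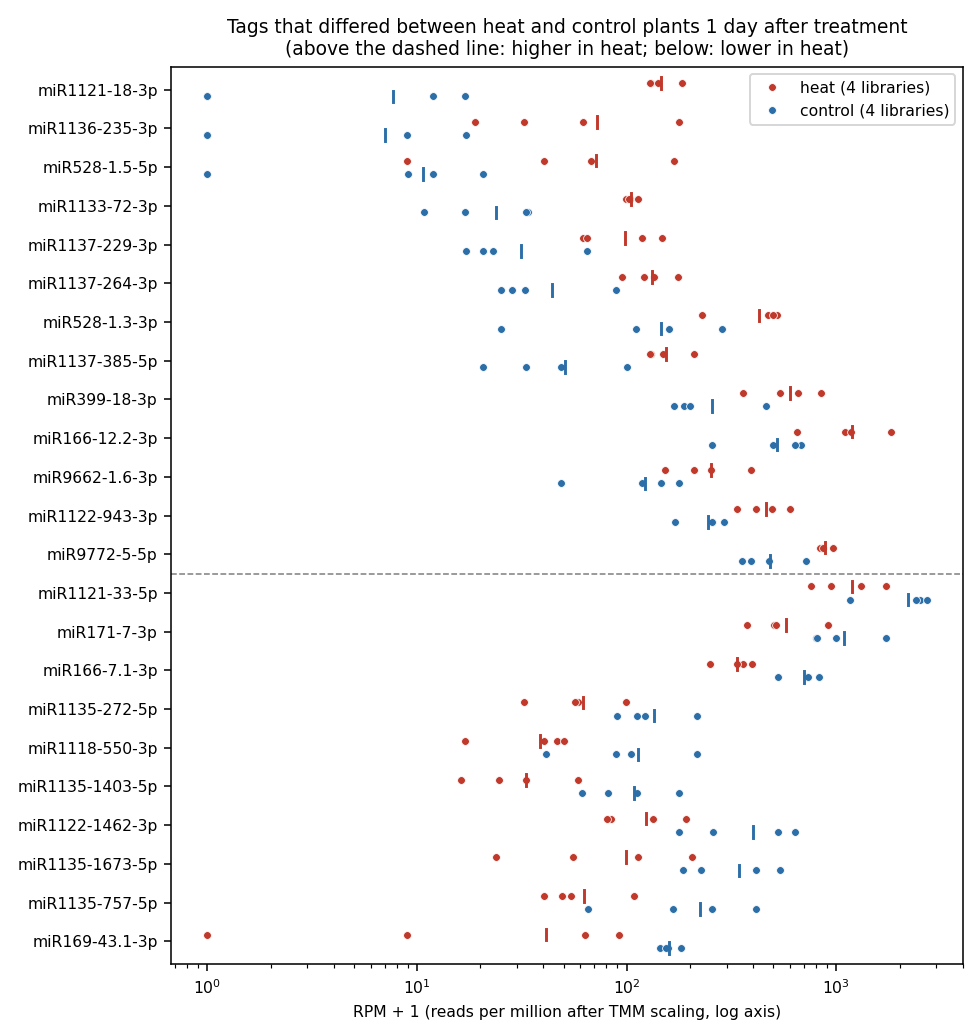
RPM + 1 (log axis) of the 23 tags called at 1 DAT, with 1 point per library, heat libraries above control libraries in each row and a bar at each group mean. The 4 heat libraries of miR1121-18-3p sit between 128 and 182 RPM, and control libraries reach at most 15.9 RPM, whereas for miR171-7-3p the points of both groups mix.

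**Figure D2:**
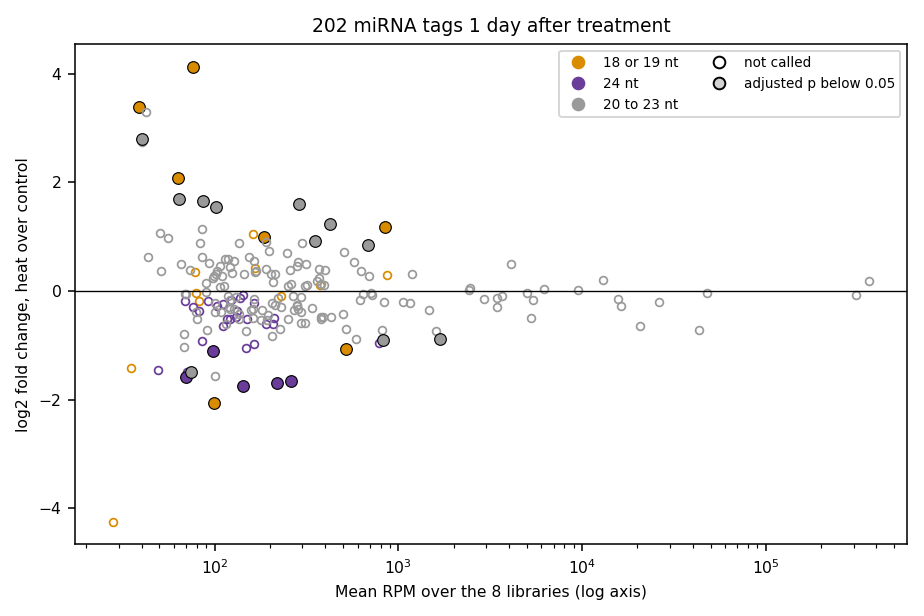
log2 fold change, heat over control, against mean RPM over the 8 libraries (log axis) for the 202 tags, coloured by tag length. Filled points with a black rim are the 23 called tags, and none of them lies among the most abundant tags, such as miR166-4.1-3p.

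The tag with the smallest p was miR1121-18-3p, a 19-nt tag whose target is not known here. It had 24, 29, 18 and 16 reads in heat libraries, against 2, 2, 0 and 0 reads in control libraries. In RPM this was 182, 129, 141 and 128 in heat and 11.0, 15.9, 0 and 0 in control. The groups were far apart, and the heat libraries were close to each other. Its log2 fold change was 4.13 (SE 0.66, adjusted p = 0.000297). At 0 DAT it was 4.68 (adjusted p = 1.86e-05), and at 4 DAT it was 2.61 (adjusted p = 0.0636). Since 2 control libraries had no read, the fitted size depends on the small count that edgeR adds. The study kept tags by a minimum level in any single library, so a tag this low may be listed only because of its heat libraries. This was not tested.

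In the nutrient and copper families 3 of 11 tags (27.3%, against 6.44% of all tags) were higher and no tag was lower in heat, with a median log2 fold change of 0.50 against -0.12 over all tags. Of these, 2 of the called tags and 5 of the 11 come from the single hairpin of miR528, so they are not independent measurements. The 11 tags held 0.280% ± 0.0981 of the reads in heat libraries and 0.206% ± 0.102 in control libraries (SD, n = 4 each), with overlap. miR399-18-3p, the single tag of miR399, had 842, 356, 657 and 535 RPM in heat libraries and 187, 198, 166 and 459 RPM in control libraries. The means were 598 ± 205 RPM for the heat and 253 ± 138 RPM for the control libraries (SD, n = 4 each). Control replicate 4 lay among the heat libraries, and the other control libraries lay below all of them. The log2 fold change was 1.23 (SE 0.31, edgeR adjusted p = 0.0175), and the call was lost without control replicate 2, control replicate 3 or heat replicate 1 (adjusted p up to 0.0624).

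In miR528 the called tags were not the most abundant product of the hairpin. miR528-1.3-3p, from the 3p arm, had 471, 520, 227 and 495 RPM in heat libraries, against 110, 159, 284 and 24.2 RPM in control libraries. The groups overlapped only through heat replicate 3 and control replicate 3. The log2 fold change was 1.60 (SE 0.51, adjusted p = 0.0461). miR528-1.5-5p had 22, 15, 5 and 1 reads in heat libraries and 2, 0, 2 and 1 reads in control libraries, a log2 fold change of 2.80 (SE 0.84, adjusted p = 0.0341). Heat replicate 4 was at the level of the controls. With counts this low, leaving out heat replicate 1 or any of control replicates 1, 2 and 4 ended the call.

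The other tags of miR528 did not pass the test at 1 DAT. miR528-1.1-5p averaged 701 ± 228 RPM in heat plants and 731 ± 384 RPM in control plants (SD, n = 4 each), a log2 fold change of -0.07 (SE 0.37). miR528-1.2-5p averaged 365 ± 98.3 RPM in heat and 260 ± 71.5 RPM in control (log2 fold change 0.50, SE 0.29, adjusted p = 0.341). miR528-1.4-3p had 121, 40.0, 93.8 and 87.9 RPM in heat libraries and 115, 23.8, 29.3 and 72.5 RPM in control libraries. These ranges overlapped almost wholly.

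miR398, whose known targets include a copper and zinc superoxide dismutase, was counted at a few reads only. miR398-1.1-5p had 10, 45, 3 and 1 reads in heat libraries and 0, 2, 0 and 2 reads in control libraries (log2 fold change 3.30, SE 1.19, adjusted p = 0.0771). With the replicate number as a block it passed the test (log2 fold change 3.14, adjusted p = 0.0405), but heat replicate 2 carried most of its reads. miR398-1.2-3p had 5, 40, 6 and 3 reads in heat libraries, against 0, 14, 0 and 6 reads in control libraries, and was not called. In both tags replicate 2 was the highest heat library.

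The 3 tags of miR395 did not differ beyond their spread. miR395-18-3p had 159, 294, 70.3 and 24.0 RPM in heat libraries and 21.9, 95.3, 753 and 8.06 RPM in control libraries. Control replicate 3 was far above the other controls: the log2 fold change was -0.54 (SE 1.02) with that library and 1.86 without it, and it was 0.26 with the replicate block. miR395-7-3p had 1 read in heat, in replicate 4, and 22 reads in control, all in replicate 3.

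The transcription factor regulators had 1 higher and 3 lower tags among 55 (1.82% and 5.45%, against 6.44% and 4.95% of all tags), and their median log2 fold change was -0.13. In miR166, which took 79.4% ± 2.18 of the reads in heat and 75.2% ± 2.86 in control (SD, n = 4 each, groups overlapping), 1 short tag was higher and another was lower. miR166-12.2-3p had 1093, 1170, 649 and 1814 RPM in heat libraries, against 680, 635, 254 and 500 RPM in control libraries. Heat replicate 3 lay just under control replicate 1. Its log2 fold change was 1.18 (SE 0.31, adjusted p = 0.0175). At 0 DAT it was 1.65 (adjusted p = 0.00067).

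miR166-7.1-3p went the other way. It had 357, 396, 336 and 248 RPM in heat libraries and 823, 722, 734 and 524 RPM in control libraries. No heat library reached a control library, and the log2 fold change was -1.06 (SE 0.26, adjusted p = 0.0175). The abundant 21-nt tags of miR166 did not pass the test: miR166-4.1-3p averaged 389496 RPM in heat and 342466 RPM in control (log2 fold change 0.19, SE 0.24). The 21-nt tag miR166-12.1-3p was at 4101 to 5191 RPM in heat libraries and 2475 to 3912 RPM in control libraries, without overlap, but its adjusted p was 0.174.

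miR171-7-3p, whose family acts on mRNAs of GRAS proteins, had 372, 907, 500 and 511 RPM in heat libraries and 998, 802, 1722 and 806 RPM in control libraries. Heat replicate 2 lay within the controls, and the others lay below them. The log2 fold change was -0.91 (SE 0.29, adjusted p = 0.0465). It was -0.90 at 0 DAT (adjusted p = 0.0346) and -1.01 at 4 DAT (adjusted p = 0.121). In the 8 fits without a library the value at 1 DAT ranged from -1.19 to -0.55, with -0.55 without control replicate 3 (adjusted p = 0.294). miR169-43.1-3p had 12, 0, 8 and 1 reads in heat libraries, against 33, 18, 16 and 19 in control libraries (log2 fold change -2.07, SE 0.68, adjusted p = 0.0491), and it was called in 1 of the 8 fits without a library.

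The most abundant tags of the other regulator families gave no call. miR319g-1, the only tag of miR319, was at 187 to 305 RPM in heat libraries and 135 to 165 RPM in control libraries. Its groups did not overlap, and it missed the threshold (log2 fold change 0.73, SE 0.27, adjusted p = 0.0805). miR396-5-5p, from a family that acts on growth-regulating factors, averaged 32559 ± 10998 RPM in heat and 53913 ± 34630 RPM in control (adjusted p = 0.204), with a single control library at 100040 RPM. miR156-1.1-5p, miR159f-1, miR167-2-5p and miR169-45-3p had log2 fold changes of -0.20, 0.31, -0.28 and -0.71, each under 1.5 times its SE.

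In the F-box list (miR393, miR394 and miR9772), 1 of 11 tags was higher in heat (9.09%, near the 6.44% of all tags), and the median log2 fold change was -0.04. miR9772-5-5p had 850, 832, 961 and 863 RPM in heat libraries, against 713, 389, 352 and 476 RPM in control libraries. All heat libraries were above all controls and close together (log2 fold change 0.85, SE 0.25, adjusted p = 0.0341). The call held in 4 of the 8 fits that left out 1 library (edgeR adjusted p up to 0.0673). The auxin-receptor regulator miR393-6-5p averaged 4950 RPM in heat and 5094 RPM in control, and miR394-3-5p averaged 150 RPM in heat and 104 RPM in control. Neither was called.

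In the 16 tags of the miR96xx families only miR9662-1.6-3p was called. It had 250, 151, 391 and 208 RPM in heat libraries and 176, 47.6, 117 and 145 RPM in control libraries (log2 fold change 1.00, SE 0.33, adjusted p = 0.0471). Heat replicate 2 lay within the controls. The most abundant tag of that family, miR9662-1.1-3p, averaged 9575 ± 910 RPM in heat and 9503 ± 2727 RPM in control. The 8 tags in the remaining small families did not pass the test (median log2 fold change -0.02).

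The miR11xx and miR1439 families held 101 tags, of which 7 rose in heat and 7 fell (6.93% each, near the 6.44% and 4.95% of all tags), and the median log2 fold change was -0.19. The higher ones included 3 tags of miR1137. miR1137-264-3p had 175, 133, 93.8 and 120 RPM in heat libraries, against 27.4, 31.8, 88.0 and 24.2 RPM in control libraries (log2 fold change 1.66, SE 0.42, adjusted p = 0.0175). The groups did not overlap, and control replicate 3 came close to the lowest heat library. miR1137-385-5p had 129, 209, 149 and 128 RPM in heat and 98.8, 47.6, 19.6 and 32.2 RPM in control, again without overlap (log2 fold change 1.54, SE 0.42, adjusted p = 0.0223). miR1137-229-3p, which in the hairpin's orientation shares 20 bases with miR1137-264-3p, had a log2 fold change of 1.69 (SE 0.53, adjusted p = 0.0461). The family's main product, miR1137-443-5p, averaged 14833 ± 3198 RPM in heat and 16533 ± 4556 RPM in control and was not called.

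Of the other higher tags of these families, miR1133-72-3p and miR1136-235-3p were low in count. miR1133-72-3p, of 18 nt, had 13, 23, 13 and 14 reads in heat libraries and 6, 2, 1 and 4 reads in control libraries (log2 fold change 2.08, SE 0.55, adjusted p = 0.0175). miR1136-235-3p had 8, 4, 4 and 22 reads in heat libraries, against 0, 1, 0 and 2 in control libraries (log2 fold change 3.40, SE 0.95, adjusted p = 0.0235). In both the groups did not overlap in RPM. The call of miR1136-235-3p held in 4 of the 8 fits that left out 1 library. miR1122-943-3p had 600, 414, 492 and 336 RPM in heat libraries and 291, 254, 254 and 169 RPM in control libraries, which was a log2 fold change of 0.92 (SE 0.26, adjusted p = 0.0235). At 0 DAT its log2 fold change was 0.14 and at 4 DAT it was 0.13.

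The lower tags of these families were mostly of 24 nt. miR1135-1673-5p had 22.8, 205, 54.7 and 112 RPM in heat libraries, against 225, 413, 538 and 185 RPM in control libraries (log2 fold change -1.70, SE 0.43, adjusted p = 0.0175). miR1135-757-5p, shifted by 1 base, had 53.1, 107, 39.1 and 47.9 RPM in heat libraries and 165, 254, 411 and 64.5 RPM in control libraries (log2 fold change -1.75, SE 0.45). In both, heat replicate 2 was the highest heat library and control replicate 3 the highest control library. miR1135-1403-5p had 2, 13, 3 and 4 reads in heat and 11, 14, 18 and 10 reads in control, and in RPM its groups did not overlap (log2 fold change -1.58, SE 0.47, adjusted p = 0.0341). miR1135-272-5p had a log2 fold change of -1.11 (adjusted p = 0.0461), which did not pass with the replicate block (adjusted p = 0.0772).

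miR1122-1462-3p had 83.5, 191, 133 and 79.9 RPM in heat libraries and 258, 524, 636 and 177 RPM in control libraries (log2 fold change -1.66, SE 0.40, adjusted p = 0.0175). In the hairpin's orientation, 18 bases of it are complementary to miR1122-943-3p, the tag of the same family that was higher, and in the deposited orientation both hold the same 18 bases. miR1121-33-5p, at 751 to 1730 RPM in heat libraries and 1161 to 2710 RPM in control libraries, had a log2 fold change of -0.89 (SE 0.29, adjusted p = 0.0465). miR1118-550-3p had 6, 11, 5 and 2 reads in heat and 16, 13, 22 and 5 reads in control (log2 fold change -1.48, SE 0.45, adjusted p = 0.0341, and -0.95 without control replicate 3, adjusted p = 0.186). Just outside the threshold were miR1120-1361.2-5p, miR1136-1111-3p and miR1122-1484-5p, each with an adjusted p of 0.0516 and with groups that did not overlap. With the replicate block, miR1136-1111-3p (log2 fold change -1.51) and miR1122-1484-5p (log2 fold change 0.89) passed the test, each with an adjusted p of 0.0405.

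Grouped by length, all 30 tags of 24 nt, which all belong to the miR11xx families, had a negative log2 fold change: of these 5 were called lower (16.7%, against 4.95% of all tags) and the other 25 were not called. Their median was -0.52, with a range of -1.75 to -0.08. Of the 13 tags of miR1135 with 24 nt, 4 were lower and the median was -0.97, while none of its 14 tags of 21 nt was called and the median was -0.32. Several of these tags overlap in sequence, so that their number is not a number of independent measurements.

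The shares of reads in 24-nt tags overlapped between the groups: 0.308%, 0.597%, 0.240% and 0.342% in heat libraries, against 0.375%, 0.785%, 1.27% and 0.289% in control libraries. Control replicate 3 was the highest and control replicate 4 was below 3 of the heat libraries. Without control replicate 3, 26 of the 30 values were negative, the median was -0.29 and none was called. Without control replicate 2 all 30 were negative, the median was -0.40 and none was called.

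The 17 tags of 18 or 19 nt had a median log2 fold change of 0.29, and 5 of them were called higher and 2 lower (29.4% and 11.8%, against 6.44% and 4.95% of all tags). Without control replicate 2, 1 of them was called higher and 0 lower, and without control replicate 3, 1 was higher and 1 lower. The 17 tags held 0.470% ± 0.102 of the reads in heat libraries and 0.389% ± 0.148 in control libraries (SD, n = 4 each), with overlap. Of the reads outside miR166 they held 0.665% ± 0.0561 in heat and 0.450% ± 0.141 in control, also with overlap. The 116 tags of 21 nt had a median of 0.00, with 7 higher and 2 lower. On the 3p arm 10 of 87 tags were higher (11.5%) and 5 were lower (5.75%), and on the 5p arm 3 of 103 were higher (2.91%) and 5 were lower (4.85%), where 6.44% and 4.95% of all tags were called. The difference between the arms was not tested.

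**Figure D3:**
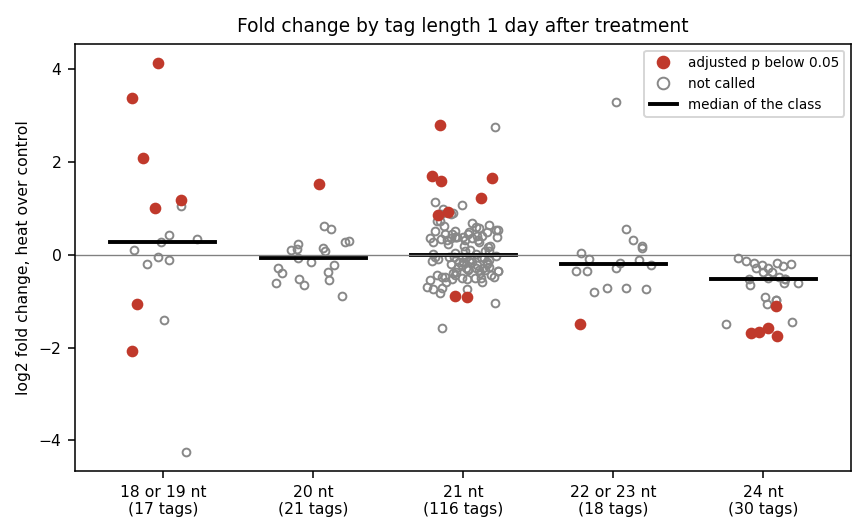
log2 fold change, heat over control, of each of the 202 tags by length class, with called tags filled and a black line at the class median. All 30 tags of 24 nt lie below 0, and the median of the 17 tags of 18 or 19 nt is 0.29.

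A shortened tag and the longer tag that starts with it were counted in the same library, so that their ratio does not depend on library scaling. In 7 of 55 such pairs (12.7%) the share of the shortened tag was higher in every heat library than in every control library, and in 3 (5.45%) it was lower in every heat library. The pairs share tags with each other. miR9662-1.6-3p made up 5.45% ± 2.03 of itself and the 21-nt miR9662-1.2-3p in heat libraries and 1.94% ± 0.371 in control libraries (SD, n = 4 each). miR1137-385-5p made up 16.3%, 20.2%, 18.4% and 16.2% of itself and miR1137-121-5p in heat, against 9.38%, 6.12%, 3.45% and 4.76% in control.

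In miR166 the 18-nt form of 1 sequence took a larger share beside its 19-nt form in every heat library than in any control library, though only the 19-nt form passed the test. miR166-5.1-3p made up 71.5%, 73.7%, 70.9% and 80.0% of the reads of itself and miR166-7.1-3p in heat libraries, against 47.6%, 58.1%, 58.1% and 41.4% in control libraries. The 19-nt miR166-7.1-3p in turn was 0.718% ± 0.198 of itself and the 21-nt miR166-8.1-3p in heat and 1.44% ± 0.271 in control. In the other pair of an 18-nt and a 19-nt tag of miR166, miR166-13-3p made up 23.6%, 41.4%, 35.9% and 41.2% of itself and miR166-1-3p in heat libraries, against 15.5%, 35.9%, 26.4% and 14.3% in control libraries, with overlap. In miR1136, the 21-nt tag miR1136-1752-3p was 88.9%, 92.0%, 90.3% and 94.3% of itself and the 24-nt miR1136-1111-3p in heat libraries, and 73.3%, 81.7%, 67.9% and 74.2% in control libraries. None of these pair values was given a test, since several of their tags were called in the same comparison.

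**Figure D4:**
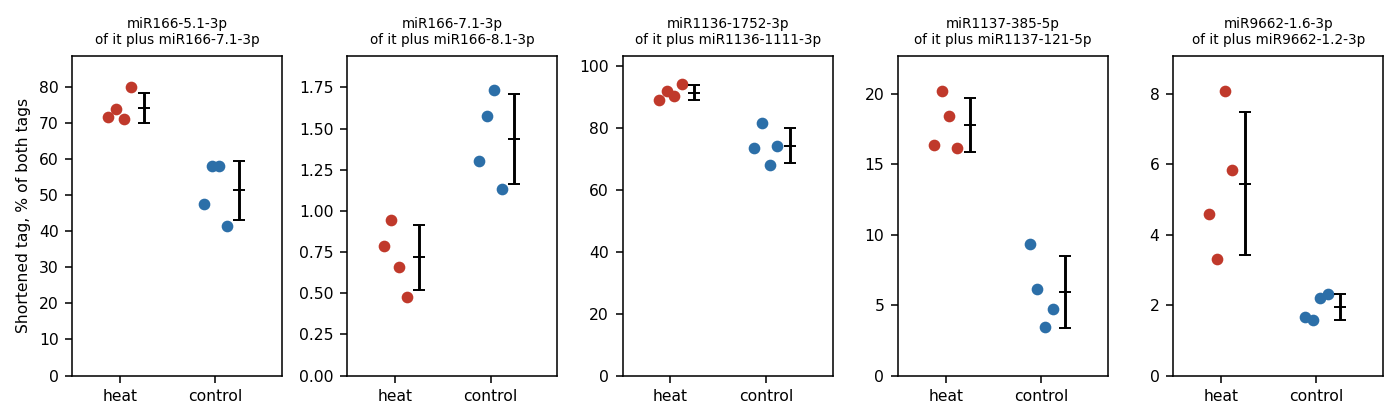
Reads of a shortened tag as a percentage of the reads of that tag and a longer tag that starts with it, per library (points, heat left, control right), with mean and SD (n = 4). The 5 pairs were picked from those whose groups do not overlap (of 55 pairs, 7 with a higher share in heat and 3 with a lower share). Several of their tags were called in the same comparison. Of the 5, only in the pair of miR166-7.1-3p and miR166-8.1-3p is the share lower in heat.

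When tags were summed by family, 1 of 37 families (2.7%) was called, miR399, which has a single tag. The families closest to the threshold were miR171, with 935 ± 233 RPM in heat plants and 1584 ± 628 RPM in control (log2 fold change -0.75, SE 0.24, edgeR adjusted p = 0.0689), and miR1135, with 4377 ± 967 RPM in heat plants and 6499 ± 1517 RPM in control (log2 fold change -0.57, SE 0.19, adjusted p = 0.0689). miR166 had a log2 fold change of 0.06 (SE 0.22). The miR399 call was lost without control replicate 1, 2 or 3 or heat replicate 1 or 3, when 0 families passed, while without heat replicate 2 there were 5 families and without control replicate 4 there were 4.

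The design also let the heat effect of 1 DAT be set against that at 0 DAT, the end of the heat, and at 4 DAT, in the same plant pools. By the same test 35 tags (17.3%) were called at 0 DAT and 0 (0%) at 4 DAT, where 26 had an unadjusted p under 0.05 in edgeR. Summed by family, miR528 and miR1135 passed at 0 DAT. At 4 DAT the families miR399 (log2 fold change 1.19, edgeR adjusted p = 0.0320) and miR171 (log2 fold change -0.83, edgeR adjusted p = 0.0371) passed. Of the 23 tags called at 1 DAT, 11 were called in the same direction at 0 DAT and 1 in the opposite direction, and 11 were called at 1 DAT alone. A call at 1 day and not at another does not show a difference, and the difference itself was tested.

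In the fit without a block for the plant pools, the heat effect differed between 1 and 0 DAT in 5 tags (2.48%, edgeR adjusted p below 0.05). With that block only miR528-1.1-5p was called. In miR528-1.1-5p the levels were 13.4 ± 9.38 RPM in heat plants and 1012 ± 508 RPM in control plants at 0 DAT, 701 ± 228 and 731 ± 384 RPM at 1 DAT, and 871 ± 260 and 668 ± 120 RPM at 4 DAT (heat and control, SD, n = 4 each). The log2 heat effect thus was 6.14 higher at 1 DAT than at 0 DAT (SE 0.70, adjusted p = 7.26e-07). miR528-1.3-3p was lower in heat at 0 DAT (log2 fold change -1.67, adjusted p = 0.0374) and higher at 1 DAT, a difference of 3.28 (SE 0.76, adjusted p = 0.0207). In miR399-18-3p the log2 fold change was -0.45 at 0 DAT, 1.23 at 1 DAT and 1.19 at 4 DAT, and the difference between 1 and 0 DAT was 1.69 (SE 0.46, adjusted p = 0.0492).

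The other tags of that kind were called at 0 DAT and not at 1 DAT. miR166-11-5p averaged 94.3 ± 45.9 RPM in heat plants and 481 ± 109 RPM in control plants at 0 DAT, against 316 ± 110 RPM in heat plants and 439 ± 202 RPM in control plants at 1 DAT (difference 1.88, adjusted p = 0.0492). miR167-1-5p, whose family acts on auxin response factors, had 767 ± 343 RPM in heat plants and 217 ± 55.0 RPM in control plants at 0 DAT, against 356 ± 120 RPM in heat plants and 498 ± 451 RPM in control plants at 1 DAT (difference -2.28, adjusted p = 0.0492). With the plant pool as a block, as the repeated sampling of the same plants calls for, only miR528-1.1-5p was called (difference 6.04, adjusted p = 4.25e-05). The count also fell to 1 without control replicate 3 or heat replicate 1 of 0 DAT, to 2 without control replicate 1 or 2 or heat replicate 2 of 0 DAT or without control replicate 2 or heat replicate 3 of 1 DAT, and to 3 without heat replicate 3 or 4 of 0 DAT.

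Between 1 and 4 DAT the heat effect differed in 0 tags (0%) by edgeR's quasi-likelihood test, and in 0 by its likelihood ratio test and by DESeq2, with 5 tags at an unadjusted p under 0.05. The smallest p belonged to miR166-7.1-3p (0.00632), whose log2 fold change was -1.06 at 1 DAT and 0.03 at 4 DAT. Of the 23 tags called at 1 DAT, 21 had the same sign at 0 DAT and 21 at 4 DAT. The same count was not made over all tags, and some of the 23 overlap in sequence. The comparisons of the 3 days share no libraries but share the plant pools.

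**Figure D5:**
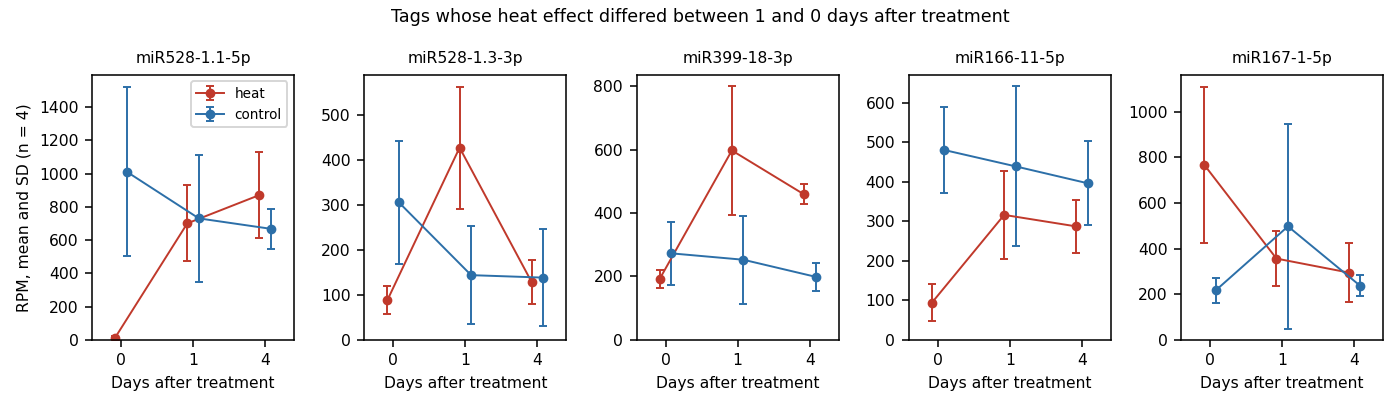
Mean RPM and SD (n = 4) in heat and control plants at 0, 1 and 4 days after treatment for the 5 tags whose heat effect differed between 1 and 0 DAT in the fit without a block for the plant pools. With that block only miR528-1.1-5p was called. miR528-1.1-5p is near 0 in heat plants at 0 DAT and level with the controls at 1 DAT, and miR399-18-3p is above the controls at 1 and 4 DAT only.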

How the data were processed

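The deposited values are raw counts per tag. The authors trimmed the adapters of MiSeq reads, kept reads of 18 to 24 nt and counted tags that matched wheat hairpin loci (Bowtie2, version not given in the sources used here). They kept only tags that reached a minimum level in any single library. A low tag may therefore be listed only through the group where it was high, which was not tested. Tags that differ by register or length were counted apart, but the reads of a tag that matches several hairpin loci cannot be divided among them. Names with a letter were matched by sequence to the study's sequence list.

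From these counts, edgeR 4.0.16 in R 4.3.3 (TMM, quasi-likelihood test) was fitted to all 24 libraries in 6 groups. It had no block, no further filter and Benjamini-Hochberg adjustment over 202 tags. The SE is the log2 fold change divided by the square root of F. DESeq2 1.42.0, other scalings, a filter, blocks and fits without each library were alternatives. Replicates of a group differed by far more than sampling noise. No label says that pools of a group were separate cultures or cabinets, so p-values measure the spread between these pools.

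Named tags were all those called at 1 DAT, those whose heat effect differed between 1 and 0 DAT, all tags of miR528, miR398, miR399 and miR395, and the most abundant tag of 14 families. Other tags were named after their values were seen. Members and lists were chosen with earlier results of these data known.

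Heat and control libraries share replicate numbers. Over 122 tags, the residuals (after the group mean was taken off) of heat and control libraries with the same number correlated at 0.31, 0.57, 0.24 and 0.32, and those with different numbers at -0.50 to 0.36. The highest of these was heat replicate 2 with control replicate 3, and every library except control replicate 3 correlated best with its own number. The number was treated as pairing the samples only in the alternatives with a replicate block, on a hint from the data. The main fit and its p values did not use it.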

Additional observations from a re-analysis of the deposited data

Results flagged for a closer look

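In groups of 4 libraries, a single library far from the other 3 marks a value for a second look. For values that follow a normal distribution, chance marks about 1 group in 20. That rate need not hold for low counts, where 1 read is enough when the other 3 libraries are at 0. Of the 118 groups examined, 15 were marked. In heat libraries these were miR528-1.3-3p, with replicate 3 at 227 RPM and the others at 471 to 520, miR398-1.2-3p, with replicate 2 at 178 RPM and the others at 24.0 to 46.9, miR9772-1-5p, with replicate 2 at 1179 RPM and the others at 602 to 645, miR1137-443-5p, with replicate 4 at 10092 RPM and the others at 15878 to 17056, and miR395-7-3p, with replicate 4 at 7.99 RPM (1 read) and the others at 0.

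In control libraries, replicate 3 stood apart in the miR395 tags: miR395-18-3p at 753 RPM against 8.06 to 95.3 in the others, miR395-41-3p at 196 RPM against 0 to 23.8, and miR395-7-3p at 215 RPM against 0. It also was the highest for miR1137-264-3p, at 88.0 RPM against 24.2 to 31.8. Control replicate 1 stood apart in miR528-1.1-5p, at 1306 RPM against 508 to 572, in miR528-1.2-5p, at 154 RPM against 286 to 303, and in the share of reads of 22 or 23 nt, at 3.75% against 4.99% to 5.15%. Control replicate 2 was the highest for miR1137-229-3p, at 63.5 RPM against 16.1 to 21.9. Control replicate 4 was the highest for miR399-18-3p, at 459 RPM against 166 to 198, and for miR159f-1, at 2289 RPM against 499 to 754.

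The heat effect at 1 DAT minus that at 0 DAT (log2) was 6.14 in miR528-1.1-5p, 3.28 in miR528-1.3-3p, 1.69 in miR399-18-3p, 1.88 in miR166-11-5p and -2.28 in miR167-1-5p. Each was called by edgeR's test of that difference without a block for the plant pools, and with that block only miR528-1.1-5p was called. The cause of these marked values was not tested.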

How the results depend on the processing

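At 72458 to 225459 reads per library, the median tag had 19 to 40.5 reads in a library, so small changes in low tags were not detectable. The 13 higher tags kept their count within 1.5 times under DESeq2 size factors, scaling outside miR166, filterByExpr (193 tags left), the likelihood ratio test, DESeq2, robust fitting and the replicate block over 24 libraries (16 higher, 11 lower, 22 of the 27 shared with the 23 calls). With library totals only there were 5 higher and 0 lower tags, and 1 tag whose heat effect differed between 1 and 0 DAT. With DESeq2 size factors there were 6 lower tags and 3 that differed between these days, and with scaling outside miR166 there were 6 lower tags. The likelihood ratio test gave 9 tags that differed between 1 and 0 DAT and 4 families, and DESeq2 gave 8 tags and 3 families.

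With the replicate block in the 8 libraries of 1 DAT alone, 1 tag was higher, 1 was lower and 0 families were called, and with these libraries and no block the counts were 1, 0 and 0. The pairing of plant pools left 1 tag that differed between 1 and 0 DAT. The replicate block over 24 libraries ended the call of miR1135-272-5p and added those of miR398-1.1-5p, miR1136-1111-3p, miR1122-1484-5p, miR1136-755-3p and miR1120-1115-3p. Without 1 library, the counts ranged from 1 to 13 higher tags, from 0 to 13 lower tags, from 0 to 5 families and from 1 to 6 tags that differed between 1 and 0 DAT. In the same fits the log2 fold change of miR528-1.1-5p ranged from -0.31 to 0.38, the highest without control replicate 1, and that of miR395-18-3p from -1.25 to 1.86, positive only without control replicate 3. Other changes of sign were in tags that were not called. The cause of these changes in counts and fold changes was not tested. No tag differed between 1 and 4 DAT in any alternative that was run.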
